A study of Drosophila melanogaster with 6 samples.

Results

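Nicotinic acetylcholine receptors are cation channels that open when acetylcholine binds, and in insects acetylcholine is the main excitatory transmitter of the central brain. Each receptor is a ring of subunits of the Cys-loop family. The alpha subunits carry a pair of neighbouring cysteines in the transmitter binding site that the beta subunits lack, and receptors can be built of alpha subunits alone or of alpha with beta subunits. Several subunits are targets of insecticides, among them nAChRalpha6 for spinosad and nAChRalpha1 and nAChRbeta1 for neonicotinoids. The genes described here are all rows of the deposited table whose FlyBase identifier has the current symbol of a nicotinic subunit. There are 10 of them (7 alpha and 3 beta) among 17483 genes, and all 10 were among the 10366 genes that passed a filter of at least 0.5 FPKM in at least 3 libraries. FPKM is a read level scaled to transcript length and to the size of the library, so levels of different genes can be compared.

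The samples were brains dissected by hand from adult Drosophila melanogaster of the strain w1118, a white-eyed stock that the labels call wild type, at an age of 15 days. One group of flies was kept at normal food and one at normal food to which the polyamine spermidine was added, with 3 libraries each. The labels give neither dose nor sex, and nothing in them says that replicates are separate rearings of flies, so p-values speak only for the variation among these 6 libraries, and that variation could be technical. The question was how spermidine changes the transcriptome of the ageing brain.

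Relative depth, estimated from the FPKM step that a single read makes in low genes, ranged from about 0.798 in spermidine food replicate 3 to 1 in the first replicate of each food. The libraries differed in markers of other tissues. Summed over 6 photoreceptor genes, normal food replicate 1 had 898 FPKM and the other 5 libraries between 3756 and 7335. Normal food replicate 1 was also the highest of the 6 in summed muscle genes (44.7 FPKM, against 8.96 to 25.4 in the others). Summed over 6 fat body genes, the normal food libraries had 1909 to 2510 FPKM and the spermidine food libraries 9628 to 10639. Of those 6 genes, 4 were higher on spermidine food by limma at an adjusted p of 0.05. Haemocyte markers summed to between 64.0 and 75.4 FPKM on normal food and between 76.4 and 80.1 on spermidine food, with 1 of 4 genes past the threshold. The 6 glial markers summed to between 1538 and 1730 FPKM on normal food and between 1716 and 1799 on spermidine food, with none of 6 past the threshold in limma (none had an unadjusted p under 0.05, and none passed in the authors' deposited table). The lowest marker of all was the muscle gene Act88F, between 0.0636 and 0.331 FPKM. The 6 neuron markers (elav, nSyb, Syt1, brp, Syn and para) were all expressed. They summed to between 1636 and 1720 FPKM on normal food and between 1597 and 1609 on spermidine food. Syn alone passed the threshold in limma. By adjusted p in the authors' deposited table, 4 of these 6 genes were lower and 0 higher, where 8.7% of all tested genes were lower. The part of these markers in the results below was not tested, apart from the fits without single libraries.

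Of the 10 subunit genes, 1 fell on spermidine food (nAChRalpha4), 1 rose (nAChRbeta3) and 8 did not pass the test. The test was limma on log2(FPKM + 1) with p-values adjusted over all tested genes by the Benjamini-Hochberg method and a threshold of 0.05. Over all tested genes, 4.74% passed by the same rule, 1.52% lower and 3.21% higher. Of those calls, 67.8% were higher, but 51.0% were after quantile normalization of the libraries. For 6 subunit genes all 3 spermidine food libraries lay below all 3 normal food libraries, which was the case for 10.8% of all tested genes. For 1 subunit gene they all lay above, which was the case for 17.2% of all tested genes, and the groups were apart in either direction for 28% of them. The median log2 fold change of the 10 genes was -0.08, and that of all tested genes was 0.02. In bulk brain, fewer cells that express a gene and less of its RNA in each cell cannot be told apart. Both calls could be lost by leaving out a single library. Without spermidine food replicate 3 neither gene passed, and the calls over all tested genes went from 491 to 55. In that fit nAChRbeta3 had a log2 fold change of 1.03 (limma, adjusted p = 0.0509). Without normal food replicate 1, normal food replicate 2, spermidine food replicate 1 or spermidine food replicate 2, nAChRbeta3 alone passed.

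**Figure D1:**
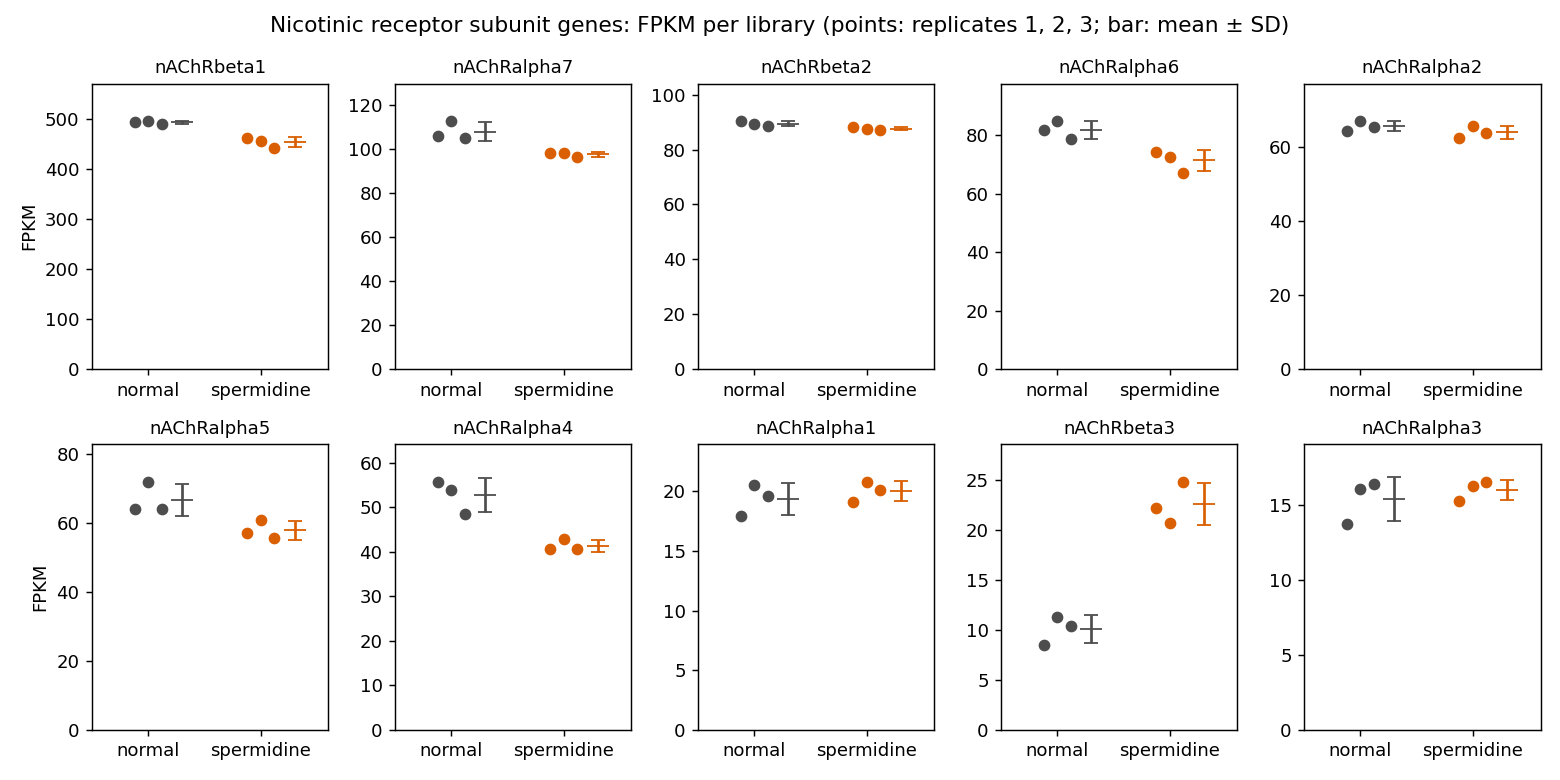
FPKM of each of the 10 subunit genes in each library (vertical axes, each starting at 0), with replicates 1, 2 and 3 from left to right, normal food in grey and spermidine food in orange; the bar beside the points is the mean ± SD of 3 libraries. The spermidine food libraries lie below the normal food libraries for nAChRalpha4 (40.5 to 42.9 against 48.6 to 55.8 FPKM) and above them for nAChRbeta3 (20.7 to 24.8 against 8.52 to 11.3 FPKM).

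The largest change among the alpha subunits was that of nAChRalpha4 (FBgn0266347, 3L, 23206669 to 23287448, + strand), which is also known as redeye, a gene whose loss alters sleep. Its levels were 55.8, 53.9 and 48.6 FPKM in normal food replicates 1, 2 and 3 and 40.7, 42.9 and 40.5 FPKM in spermidine food replicates 1, 2 and 3. The groups did not overlap, and the normal food libraries were the more spread. It fell by 21.6% in mean FPKM, from 52.8 ± 3.75 to 41.4 ± 1.31 (SD, n = 3 each; limma, log2 fold change -0.34 ± 0.06 SE, adjusted p = 0.031). The adjusted p ranged from 0.024 to 0.129 when each library was left out in turn, and the log2 fold change from -0.40 to -0.30. Of these 6 fits the call held only in that without normal food replicate 3, where the adjusted p was 0.024. With all 6 libraries the call was also lost when no filter on low values was set (limma, adjusted p = 0.0545).

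nAChRalpha4 lies in the part of 3L near the centromere, and 49 annotated transposable elements overlap its span, against 0 to 3 for each of the other 9 subunit genes. Of 42 tested genes within 500000 bases of it, a window chosen after the values were seen, 5 were lower and 0 were higher by limma, where 1.52% of all tested genes were lower and 3.21% higher, and their median log2 fold change was -0.05. The genes lower there were Vps11, CG33217, CR41454, asRNA:CR45164 and lncRNA:CR45736. Around the other 9 subunit genes the median of the neighbours lay between 0.01 and 0.08, with 0 to 3 genes lower and 0 to 6 higher. Of the 110 tested neighbours of nAChRbeta3, 3 were lower and 0 higher. A noncoding gene on the opposite strand shares 247 bases with exons of nAChRalpha4, which is 4.08% of its exon length. The part of the region in the fall was not tested.

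nAChRalpha5, nAChRalpha6 and nAChRalpha7 form a branch of the family and are the fly subunits most like the vertebrate alpha7 subunit. None of them passed the test, and for each of them the groups did not overlap. nAChRalpha6 (FBgn0032151, 2L, 9793317 to 9886250, − strand) had 81.8, 85.0 and 78.9 FPKM on normal food against 74.3, 72.6 and 67.2 on spermidine food. Its log2 fold change was -0.20 ± 0.05 (SE; limma, adjusted p = 0.089). Every spermidine food library was thus below the lowest normal food library.

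The neighbouring branch member nAChRalpha5 (FBgn0028875, 2L, 14040170 to 14094401, + strand) had 63.9, 72.0 and 63.9 FPKM on normal food against 57.0, 60.9 and 55.6 on spermidine food. The second replicate was the highest of both groups. Its log2 fold change was -0.20 ± 0.06 (SE; limma, adjusted p = 0.133). nAChRalpha7 (FBgn0086778, X, 19327075 to 19348447, − strand), a subunit of the giant fibre escape circuit, had 106, 113 and 105 FPKM on normal food against 98.1, 98.3 and 96.4 on spermidine food. Its log2 fold change was -0.14 ± 0.04 (SE; limma, adjusted p = 0.104), with little spread among the spermidine food libraries (SD 1.09 FPKM) beside that on normal food (SD 4.37 FPKM).

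The other alpha subunits had FPKM values that overlapped between the foods. nAChRalpha2 (FBgn0000039, 3R, 24485428 to 24491147, + strand) had 64.3, 67.0 and 65.3 FPKM on normal food against 62.2, 65.6 and 63.7 on spermidine food, and its 95% interval for the log2 fold change ran from -0.12 to 0.05. nAChRalpha1 (FBgn0000036, 3R, 24393896 to 24457157, − strand) had 17.9, 20.5 and 19.6 FPKM on normal food against 19.1, 20.8 and 20.1 on spermidine food, with an interval from -0.10 to 0.20. The lowest value of nAChRalpha1 was that of normal food replicate 1. nAChRalpha3 (FBgn0015519, X, 8276200 to 8367169, − strand) had 13.7, 16.0 and 16.4 FPKM on normal food against 15.2, 16.2 and 16.6 on spermidine food, with an interval from -0.12 to 0.24. Here too normal food replicate 1 was the lowest library. For both genes the sign of the log2 fold change rested on that library, since it went from 0.05 to -0.0053 for nAChRalpha1 and from 0.06 to -0.018 for nAChRalpha3 without it.

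Among the beta subunits, nAChRbeta1 (FBgn0000038, 3L, 4429349 to 4435993, + strand) was the most abundant of all subunit genes. It had 493, 495 and 489 FPKM on normal food against 462, 455 and 442 on spermidine food. The groups did not overlap, and its log2 fold change was -0.12 ± 0.04 (SE; limma, adjusted p = 0.167). nAChRbeta2 (FBgn0004118, 3R, 24509228 to 24515106, − strand) had 90.5, 89.2 and 88.8 FPKM on normal food against 88.1, 87.4 and 87.1 on spermidine food. The groups were apart by less than 1 FPKM, and the log2 fold change was -0.03 ± 0.03 (SE; limma, adjusted p = 0.591). nAChRbeta2 lies in a cluster with nAChRalpha1 and nAChRalpha2 on 3R that spans 121211 bases, and none of these 3 neighbours passed the test in limma (none had an unadjusted p under 0.05).

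The gene that rose, nAChRbeta3 (FBgn0031261, 2L, 545129 to 547096, + strand), encodes the most divergent of the fly subunits. Its levels were 8.52, 11.3 and 10.4 FPKM in normal food replicates 1, 2 and 3 and 22.2, 20.7 and 24.8 FPKM in spermidine food replicates 1, 2 and 3. The lowest spermidine food library was well above the highest normal food library. The mean went from 10.1 ± 1.41 to 22.6 ± 2.08 FPKM (SD, n = 3 each), a ratio of 2.25, with a log2 fold change of 1.10 ± 0.11 (SE; limma, adjusted p = 0.0074). Leaving out each library in turn gave log2 fold changes between 0.99 and 1.18 and adjusted p between 0.012 and 0.051. The highest of these was the fit without spermidine food replicate 3.

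The reads behind the values of nAChRbeta3 cannot be assigned to it with certainty. All 1532 bases of its 4 exons (100%) lie within exons of Ets21C, a gene of an ETS transcription factor on the opposite strand, in the Ensembl release 115 annotation. The libraries were made with a stranded kit, but whether the authors' counting and FPKM used the strand is not stated in the labels or headers. In the authors' deposited table the mean normalized count of nAChRbeta3 is 0 on both foods. That is the case for 377 of the tested genes, or 3.64%. Ets21C itself (2L, 544925 to 552923) had 0.603, 0.763 and 1.57 FPKM on normal food against 1.47, 0.639 and 1.14 on spermidine food (limma, log2 fold change 0.08 ± 0.23 SE, adjusted p = 0.869). In the authors' deposited table the mean normalized counts of Ets21C were 105 and 118. The rise of nAChRbeta3 therefore stands in FPKM alone and has no count behind it. It went along with the fat body markers, whose summed level was also apart between the foods, and their part in it was not tested.

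**Figure D2:**
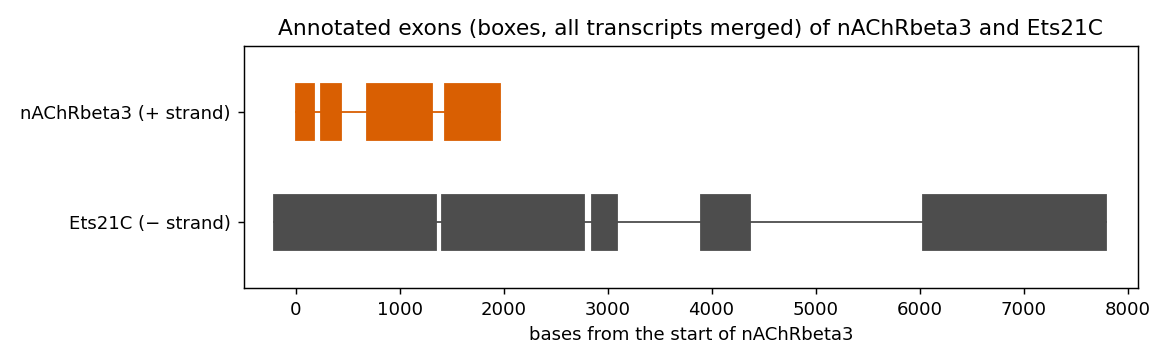
Annotated exons of nAChRbeta3 and of Ets21C on the opposite strand as boxes, drawn to scale by distance in bases from the start of nAChRbeta3, with all transcripts of a gene merged. All 4 exons of nAChRbeta3 fall within exons of Ets21C.

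By level, the subunit genes spanned a wide range. The order by mean FPKM over the 6 libraries was nAChRbeta1 (473), nAChRalpha7 (103), nAChRbeta2 (88.5), nAChRalpha6 (76.6), nAChRalpha2 (64.7), nAChRalpha5 (62.2), nAChRalpha4 (47.1), nAChRalpha1 (19.7), nAChRbeta3 (16.3) and nAChRalpha3 (15.7). nAChRbeta1 was thus 4.60 times as abundant as the next gene, and it ranked 164th among the 10366 tested genes. The ranges over the 6 libraries overlapped between nAChRalpha2 and nAChRalpha5, between nAChRalpha5 and nAChRalpha4, between nAChRalpha1 and nAChRbeta3 and between nAChRbeta3 and nAChRalpha3. The other neighbours in the order did not overlap, although nAChRalpha6 and nAChRalpha2 nearly touched, at a lowest value of 67.2 and a highest of 67.0 FPKM.

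Added together, the 10 genes had 996, 1023 and 986 FPKM on normal food, replicates 1 to 3, against 939, 940.1 and 914 on spermidine food. The sum was lower on spermidine food in 3 of 3 libraries, with means of 1001 ± 19.3 and 931 ± 15.0 (SD, n = 3 each; two-sided exact permutation test, p = 0.1, the smallest that 3 against 3 libraries allow, and 0.142 adjusted over 17 measures of composition). nAChRbeta1 held 49.2% ± 0.67 of the sum on normal food against 48.6% ± 0.49 on spermidine food (n = 3 each, with SD), and these values overlapped. The 7 alpha subunits together held 40.5%, 41.8% and 40.3% on normal food against 39.1%, 40.1% and 39.4% on spermidine food. The groups were apart, with 40.1% and 40.3% as their nearest values. The sum includes nAChRbeta3, whose reads cannot be assigned with certainty and whose share rose by 1.43 percentage points. The alpha share without nAChRbeta3 was not calculated, so the separation cannot be read apart from that gene. nAChRalpha4 held 5.27% ± 0.34 on normal food against 4.44% ± 0.11 on spermidine food, whereas nAChRbeta3 held 1.0% ± 0.13 and then 2.43% ± 0.26 (SD, n = 3 each). None of the 17 measures could pass 0.05 with this number of libraries. Set against the 6 neuron markers, the summed level was 60.8, 59.5 and 59.5 FPKM per 100 FPKM of marker on normal food against 58.8, 58.5 and 56.8 on spermidine food. The groups were apart in this ratio too, by under 1 FPKM per 100 at their nearest, and the change in its mean was -3.22%. Per 100 FPKM of ChAT the sum was 1036, 1124 and 1040 FPKM for normal food and 1062, 978 and 928 for spermidine food, which overlap (two-sided exact permutation test, p = 0.3).

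The authors' deposited table holds, beside FPKM, a mean normalized count per food, a signed fold change and a p-value, and it gave a different picture of the same libraries. Adjusted over the tested genes, the p-values of the authors' deposited table put 7 of the 9 subunit genes with counts lower and none higher (an unadjusted p under 0.05 was reached by 8, all with a lower mean count). Over all tested genes, 16.9% passed by that rule, 8.7% lower and 8.2% higher. The 7 were nAChRalpha1, nAChRalpha3, nAChRalpha4, nAChRalpha5, nAChRalpha6, nAChRalpha7 and nAChRbeta1. The fold changes of the authors' deposited table were -1.39 for nAChRalpha4, -1.21 for nAChRalpha1, -1.2 for nAChRalpha5, -1.19 for nAChRalpha7, -1.15 for nAChRbeta1 and nAChRalpha6 and -1.14 for nAChRalpha3. The clustered neighbours nAChRbeta2 and nAChRalpha2 had -1.06 and -1.04 in the authors' deposited table and did not pass (adjusted p = 0.133 and 0.468). The deposited fold changes are not plain ratios of the deposited mean counts. For nAChRalpha4 the log2 of the deposited fold change was -0.48 in size and sign, and the log2 ratio of its mean counts was -0.50.

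For nAChRalpha1 and nAChRalpha3 the 2 measures went opposite ways. The mean normalized count of nAChRalpha1 in the authors' deposited table was 10088 on normal food against 8277.9 on spermidine food, a log2 ratio of -0.29, while its mean FPKM gave 0.05. For nAChRalpha3 the means in the authors' deposited table were 7344 and 6408, a log2 ratio of -0.20, while FPKM gave 0.06. Over the 8216 tested genes with mean counts of at least 100 on both foods, the log2 count ratio minus the log2 FPKM ratio had a median of -0.01 and lay between -0.11 and 0.02 for the middle 90% (5th to 95th percentile). For nAChRalpha1 the difference was -0.33, with 0.45% of those genes lower, and for nAChRalpha3 it was -0.25, with 0.876% lower. nAChRalpha4 had -0.15 and nAChRalpha7 -0.11, also beyond the 5th percentile, whereas nAChRalpha2 had -0.02 and nAChRalpha6 -0.01. A count adds the reads over all transcripts of a gene, and FPKM divides by transcript length, so a change in which transcripts are used can move them apart. Values per transcript were not analysed here.

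**Figure D3:**
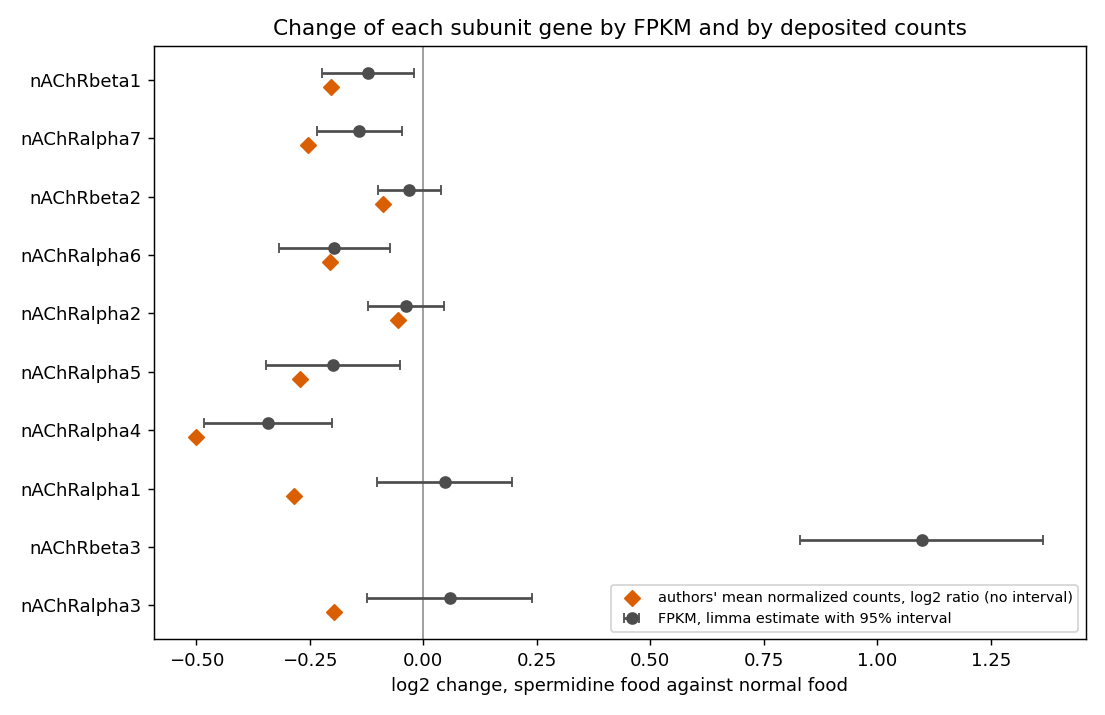
Log2 change of each subunit gene on spermidine food against normal food (horizontal axis), genes in order of level, as the limma estimate from FPKM of 3 against 3 libraries with its 95% interval (grey circles) and as the ratio of the authors' mean normalized counts, which has no interval (orange diamonds). The count ratio lies outside the FPKM interval for nAChRalpha7, nAChRalpha4, nAChRalpha1 and nAChRalpha3, and nAChRbeta3 has no count.

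The subunit genes whose measures differed most, nAChRalpha1 and nAChRalpha3, have the longest 3′ untranslated regions of the family. In the Ensembl release 115 annotation the longest one is 7843 bases in nAChRalpha1, 6757 in nAChRalpha3, 5083 in nAChRalpha5, 3791 in nAChRalpha6, 3518 in nAChRalpha4, 2967 in nAChRbeta2, 2637 in nAChRalpha7, 654 in nAChRbeta1, 143 in nAChRbeta3 and 135 in nAChRalpha2. The length classes below hold the tested genes with mean counts of at least 100 on both foods. Among 4726 of them with a longest 3′ untranslated region under 500 bases, the median log2 count ratio was 0.03 and the median log2 FPKM ratio 0.05. Among 547 genes with 2000 to 4000 bases these medians were -0.09 and -0.03, and among 143 genes with at least 4000 bases they were -0.16 and -0.03. By the p-values of the authors' deposited table, 3.26% of the genes in the shortest class were lower, and 57.3% of those in the longest. nAChRalpha1, nAChRalpha3 and nAChRalpha5, all in that longest class, had log2 count ratios of -0.29, -0.20 and -0.27. Their log2 count ratios minus log2 FPKM ratios were -0.33, -0.25 and -0.07, where the median of the class was -0.09. The difference did not follow length among the other subunit genes. nAChRalpha4 and nAChRalpha7, with shorter regions than nAChRalpha5, had -0.15 and -0.11, and nAChRalpha6 had -0.01. All of the 9 subunit genes with counts but nAChRbeta2 lay below the median count ratio of their class, the farthest being nAChRalpha4 with -0.50.

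**Figure D4:**
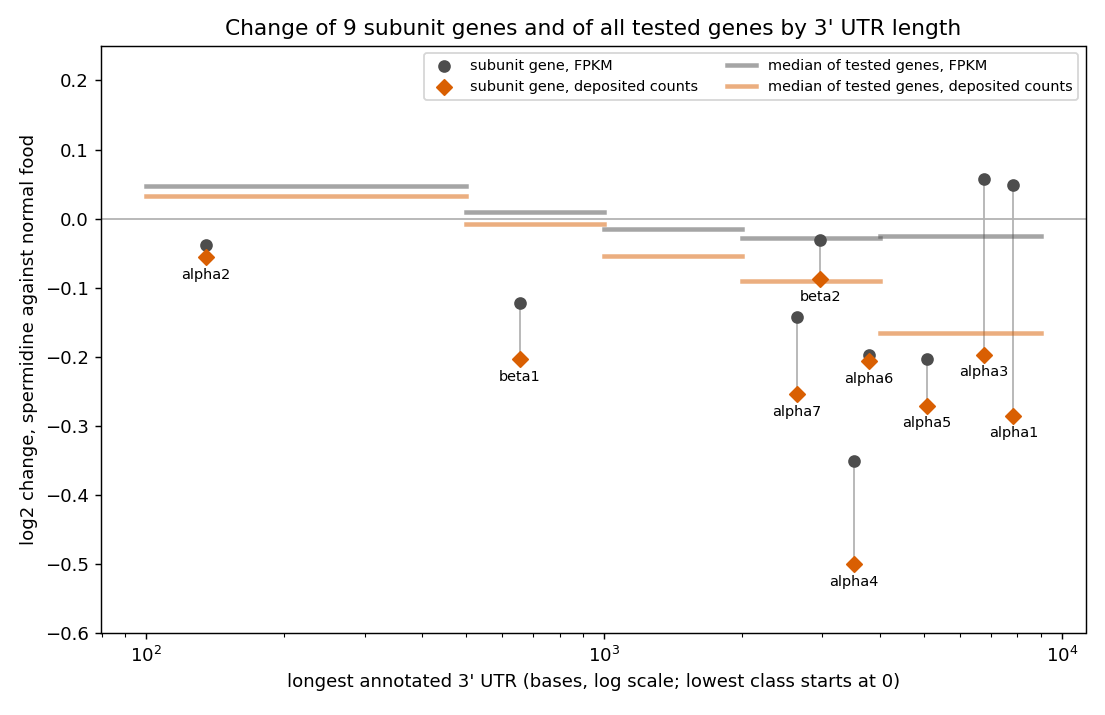
Log2 change on spermidine food against normal food (vertical axis) of the 9 subunit genes with counts, by the longest annotated 3′ untranslated region (horizontal axis, log scale), as the ratio of mean FPKM (grey circles) and of the authors' mean normalized counts (orange diamonds). Horizontal lines are medians over the tested genes with mean counts of at least 100 on both foods in each length class. They drop from 0.03 to -0.16 for counts and from 0.05 to -0.03 for FPKM. nAChRalpha1 and nAChRalpha3 show the widest gaps between the measures.

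The span of the gene on the chromosome went along with the same values. A span of over 50000 bases is shared by 5 of the subunit genes (nAChRalpha1, nAChRalpha3, nAChRalpha4, nAChRalpha5 and nAChRalpha6). By the authors' deposited table, 37.8% of 275 tested genes of that size were lower, against 5.01% of 5272 genes under 5000 bases. Both of these sets hold only genes with mean counts of at least 100 on both foods. By limma on FPKM, 4.21% of 285 tested genes over 50000 bases were lower and 0.351% higher, against 1.12% and 3.80% of 7264 genes under 5000 bases. Gene span and length of the untranslated region were not separated, and their part in the lower counts of the subunit genes was not tested.

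The other genes of acetylcholine signalling showed a like split between the measures. None of 6 tested genes of synthesis, transport, breakdown and muscarinic reception passed limma, with 2 at an unadjusted p under 0.05, and 3 were lower in the authors' deposited table. Of all 10366 tested genes, 2183 had an unadjusted p under 0.05 in limma, and 8.7% were lower in the authors' deposited table. VAChT, the vesicular acetylcholine transporter, had 61.8, 61.6 and 61.5 FPKM on normal food against 55.9, 55.6 and 52.8 on spermidine food (limma, log2 fold change -0.17 ± 0.03 SE, adjusted p = 0.0505). It passed under median-ratio scaling, under quantile normalization and under a stricter filter. ChT, the choline transporter, had 80.3, 82.5 and 81.6 FPKM and then 68.6, 71.9 and 77.4 (limma, adjusted p = 0.123). ChAT, which makes acetylcholine and shares its locus with VAChT, had 96.1, 91.0 and 94.8 FPKM on normal food against 88.4, 96.1 and 98.5 on spermidine food, which overlap (limma, log2 fold change 0.0037 ± 0.05 SE, adjusted p = 0.975). In the authors' deposited table ChAT had a fold change of -1.12 and passed. Ace, the acetylcholinesterase, had means of 141 and 151 FPKM (limma, adjusted p = 0.272). The muscarinic receptor genes mAChR-A and mAChR-B had log2 fold changes of -0.04 and -0.01, and mAChR-C was below the filter, at 0.153 to 0.364 FPKM.

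Genes that help nicotinic receptors assemble or sit at synapses formed a list of 8, all tested. None passed limma, 2 had an unadjusted p under 0.05, and 4 were lower in the authors' deposited table. The same held for 2183 of all 10366 tested genes by unadjusted p and for 8.7% of them in the deposited table. qvr, whose product sleepless is a Ly6 protein that binds nicotinic receptors, had means of 264 and 232 FPKM (limma, log2 fold change -0.19 ± 0.06 SE, adjusted p = 0.138). RIC-3, a chaperone of receptor assembly, had 81.6 and 74.2 FPKM, with groups that did not overlap (limma, adjusted p = 0.191). CG13920, the fly counterpart of the assembly factor NACHO, had 70.6 and 67.7 FPKM. The synaptic cleft proteins hig and Hasp had log2 fold changes of -0.09 and -0.03, and Unc50, which in C. elegans serves receptor trafficking, and twit 0.05 and -0.06 (the lowest adjusted p of these 4 in limma was 0.492). Adar, the enzyme that edits transcripts of several nicotinic subunits, had 85.2, 89.7 and 89.2 FPKM on normal food against 91.1, 86.3 and 84.2 on spermidine food. Its log2 count ratio from the authors' deposited table was -0.46, so it parted from FPKM more than any subunit gene did.

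Among the other Cys-loop channels, which open to GABA, glutamate or histamine or respond to pH, 9 of 12 genes were tested and none passed limma. Over all 10366 tested genes, 2183 had an unadjusted p under 0.05 in limma, and 8.7% were lower in the authors' deposited table. Of the 9 Cys-loop genes, 4 had such a p and 4 were lower in that table. The 3 with the smallest p were GluClalpha, a glutamate-gated chloride channel, with a log2 fold change of -0.13, ort, a histamine-gated chloride channel, with -0.22, and pHCl-1, a pH-sensitive chloride channel, with -0.10 (limma, adjusted p = 0.096, 0.112 and 0.178). The spermidine food libraries lay below the normal food libraries for 4 of the 9 genes, against 6 of the 10 nicotinic genes and 10.8% of all tested genes. Of 10 general neuronal genes tested, 2 fell, Gad1, which makes GABA (log2 fold change -0.25 ± 0.05 SE, limma, adjusted p = 0.047), and Syn, a synaptic vesicle protein (-0.17 ± 0.03 SE, adjusted p = 0.042). Their calls were lost without any 1 of the 6 libraries. VGlut, Syt1 and Snap25 had log2 fold changes of -0.24, -0.15 and -0.21 without passing. The median log2 fold changes were -0.03 for the acetylcholine genes, -0.06 for the assembly genes, -0.06 for the other Cys-loop channels and -0.12 for the general neuronal genes, so the nicotinic median of -0.08 lay within their range.

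**Figure D5:**
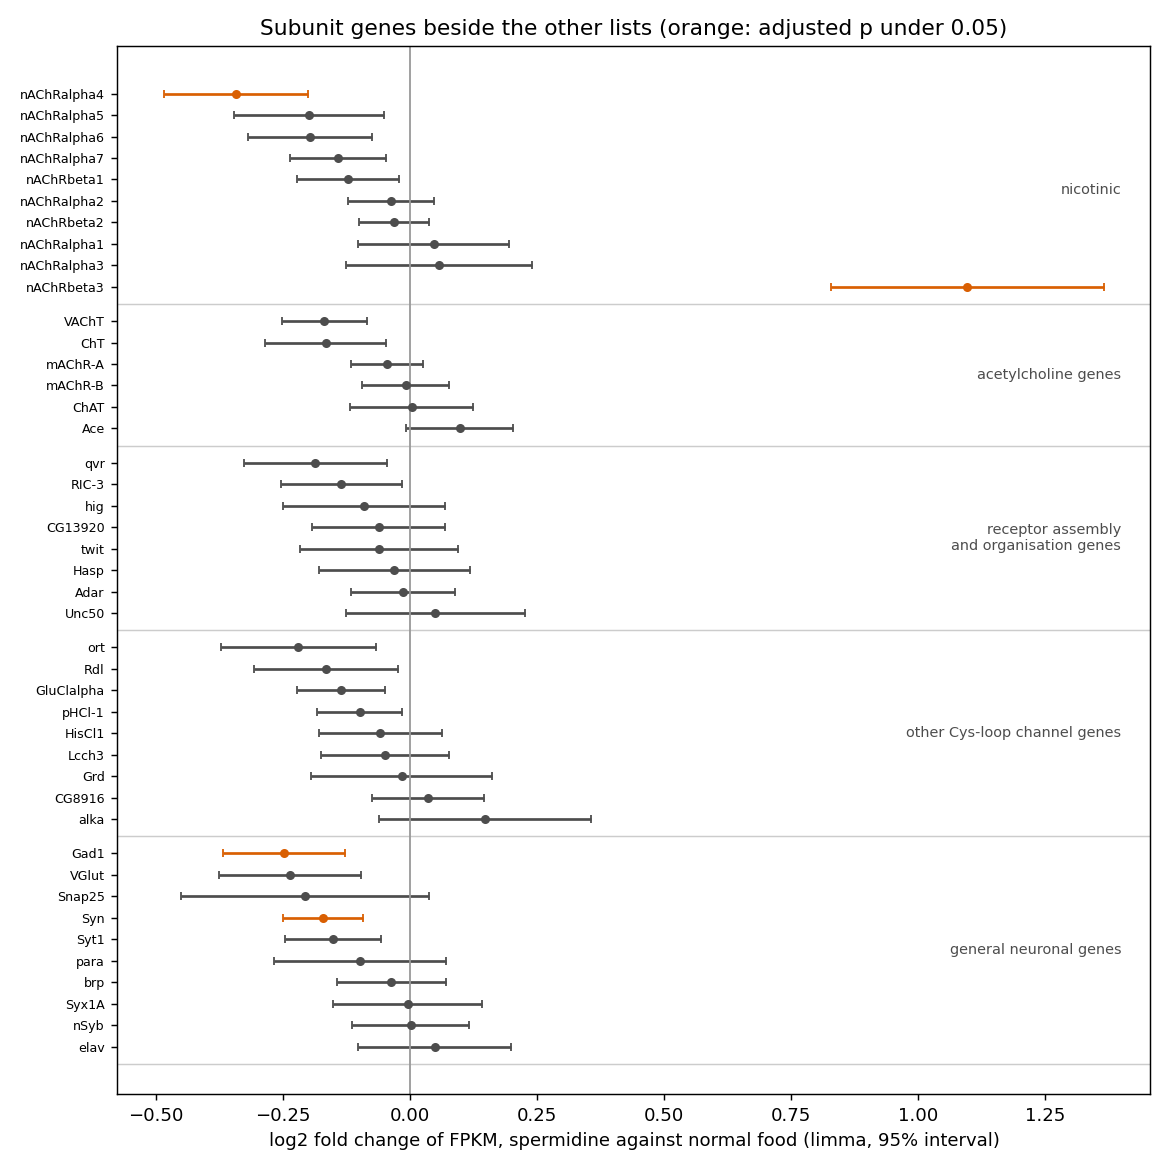
Log2 fold change of FPKM on spermidine food against normal food (horizontal axis) with the 95% interval from limma for each tested nicotinic subunit gene and for the genes of the 4 other lists, 3 libraries per food, with genes past an adjusted p of 0.05 in orange. nAChRbeta3 at 1.10 stands far from every other gene shown, and nAChRalpha4 at -0.34 is the lowest.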

How the data were processed

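Messenger RNA of 6 libraries was measured by the authors with a stranded kit, per the labels' protocols. The submitters' processing notes list HTSeq, Cufflinks and DESeq without role or version, per the file headers genes follow Ensembl build 82, and no source used here names the aligner. The authors deposited FPKM per gene and library with a status, an unadjusted p-value, a fold change with a sign (used as a score) and, for each food, the mean normalized count, a signal averaged over the libraries. Read counts per library were not used here, so no counting intervals are given.

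Of 11 deposited sheets the one with all 17483 genes was used. Genes with a status other than OK in any library (215) were left out, and current symbols were found for 17179 identifiers. limma 3.58.1 in R 4.3.3 with an intensity trend was run on log2(FPKM + 1) of genes with at least 0.5 FPKM in at least 3 of 6 libraries, with no covariates, two-sided, with Benjamini-Hochberg adjustment over all tested genes. Log2 fold changes refer to log2(FPKM + 1), so those of low genes come out too small. Single values per library were tested by an exact permutation test in scipy 1.17.1. Positions of all 10 genes were the same in the table and in the Ensembl release 115 annotation, which gave exons and untranslated regions. On simulated libraries of the 10366 genes the model recovered 42%, 80%, 94% and 88% of genes changed by 1.25, 1.5, 2 and 4 times and called 8 unchanged genes. The smallest of these folds is above that of every subunit gene but nAChRalpha4 and nAChRbeta3.

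The members and lists were chosen with earlier results of these data known. Named were all subunit, acetylcholine and assembly genes and, of the other Cys-loop and neuronal lists, those past the threshold and up to 3 more of smallest p; Act88F, Ets21C, SecCl and the neighbours of nAChRalpha4 were added after their values were seen.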

Additional observations from a re-analysis of the deposited data

How the results depend on the processing

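Of 14 alternatives to the fit over all genes, none turned the direction of nAChRalpha4, nAChRbeta3, nAChRalpha2, nAChRalpha5, nAChRalpha6, nAChRalpha7, nAChRbeta1 or nAChRbeta2, apart from nAChRbeta3 having no count in the authors' values. nAChRalpha1 and nAChRalpha3 turned to -0.0053 and -0.018 without normal food replicate 1 and to -0.28 and -0.19 in the authors' deposited fold changes. With each library left out they ranged up to 0.089 and 0.10. The 491 genes past the threshold became 261 with no filter, 257 with the replicate block, 1752 with the authors' deposited p-values (48.5% higher) and between 55 and 322 with each library left out. The 2 subunit genes past the threshold became 1 with no filter, 1 with the replicate block (nAChRbeta3 in both, nAChRalpha4 at an adjusted p of 0.0545 and 0.0637), 7 with the authors' deposited p-values and between 0 and 2 with each library left out (0 in limma without spermidine food replicate 3, with 4 at an unadjusted p under 0.05). The median of the subunit genes became -0.10 under median-ratio scaling, -0.12 under quantile normalization and -0.20 in the authors' values. The acetylcholine genes past the threshold became 1 (VAChT) under median-ratio scaling, quantile normalization and the stricter filter, and 3 in the authors' values. The assembly and the other Cys-loop genes became 1 each (qvr and ort) under quantile normalization and 4 each in the authors' values. The 2 neuronal genes became 0 in limma with no filter, without the trend, with the replicate block and without each library in turn (4 or 5 at an unadjusted p under 0.05), and 7 in the authors' values. The lower sum on spermidine food (-70.5 FPKM) became -30.6 without nAChRbeta1, and the alpha share (-1.32 percentage points) became -3.47. The cause was not tested, apart from the sum and share, which then leave out the most abundant gene. That share still counts nAChRbeta3, and no share without nAChRbeta3 was calculated.

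The labels state no pairing of the replicate numbers, so the block is given here only. Over genes, deviations of same-numbered libraries from their group means correlated at -0.05, -0.10 and 0.018 for numbers 1, 2 and 3. With 3 libraries per food, these values cannot tell whether libraries were reared or prepared in pairs. The table used here has no count per library, so what depth limits in the low genes could not be measured.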

Other observations

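One Cys-loop gene below the filter stood out among those not tested, and it was singled out after its values were seen. SecCl, a chloride channel gene, had 1.47, 0.430 and 0.684 FPKM on normal food against 0.428, 0.271 and 0.323 on spermidine food, and its mean normalized counts in the authors' deposited table were 91.9 and 36.6 (unadjusted p = 0.000426). The 3 normal food libraries were all above the 3 spermidine food libraries, with normal food replicate 1 the highest.

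Averaged over the 10 subunit genes, the profile across the 6 libraries was nearly flat, with an SD of 0.04 on the log2(FPKM + 1) scale. The average includes nAChRbeta3, whose log2 fold change of 1.10 is opposite in sign to those of the 7 genes with a lower mean. A flat average therefore does not mean that each gene was flat, and the genes that changed did not follow it. nAChRbeta3, which was higher on spermidine food, lay at a root-mean-square distance of 0.553 from it and nAChRalpha4, which was lower, at 0.191. The genes of at least that SD with the smallest root-mean-square distance to it were ph-p, lncRNA:CR44628, hang, CG31635 and BOD1, at distances between 0.011 and 0.0174 on that scale over 6 libraries, and none of them passed the test of food in limma. They were picked for closeness to this nearly flat average. That they did not pass, and are not like either gene that changed, follows largely from that choice.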
